A study of Canis lupus familiaris with 34 samples.

Results

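Interferon-stimulated genes are the effectors of the interferon response, and 39 of them were followed here through 34 dog samples, each on its own Affymetrix Canine_2 array. A gene was read by the probe sets annotated with its symbol and no other, and where several existed the brightest over the 34 arrays was used. In this way 33 of the 39 genes were measured, of 15115 genes in all. No probe set of their own was found for IFIT1, IFIT3, OASL, BST2, SAMD9 and ZBP1, and these 6 were not analysed here. All values are log2 expression levels, so a difference of 1 is a doubling.

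Interferons are secreted when cells sense foreign or misplaced nucleic acid, and they act on the secreting cell and its neighbors. Type I interferon binds a receptor whose kinases JAK1 and TYK2 act on STAT2, which works with IRF9 to switch on the stimulated genes. Their products degrade viral RNA, block translation or trap viral particles, sense more RNA, or restrain the pathway itself. Lymphocytes and myeloid cells can carry this response at rest or in disease, and type II interferon, made by T and NK cells, induces part of the same set.

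The series was made to set cultured hemangiosarcoma, a malignant tumor of blood vessel-forming cells, against splenic hematoma and against other canine tumors. The cultured cells were 10 hemangiosarcoma lines, 3 cultures from benign splenic hematomas (Pippin, a Golden Retriever, Baxter, a Standard Poodle, and Kylie, a Keeshond) and 5 osteosarcoma lines, all from Golden Retrievers. Of the hemangiosarcoma lines, 6 were labelled Golden Retriever, and the other 4 came from a Rottweiler (Joey), a Golden Retriever x Great Pyrenees (DD1), a Portuguese Water Dog (ChadP9) and a dog labelled Dalmation (Dal4). The other 16 samples were labelled primary tumor cells, not lines: 6 diffuse large B cell lymphomas, 6 T-zone lymphomas, 1 marginal zone B cell lymphoma (Bitsy), 2 chronic lymphocytic leukemias (Maddle and Forrest) and 1 acute lymphoblastic leukemia (Rascal), the last from a Golden Retriever mix and the rest from Golden Retrievers. Each dog gave 1 array, the sources used here give no treatment with interferon, and the cultures had been cryopreserved at early passages. The hemangiosarcoma and hematoma tissue was grown in conditions meant to favor endothelial cells, and 2 of the hemangiosarcoma dogs, Frog and Journey, were distantly related.

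The labels were checked against marker genes before the members were compared. The mean level of the T-cell markers was 11.15 to 11.80 in the T-zone lymphomas, 8.57 to 9.25 in the diffuse large B cell lymphomas and 4.67 to 6.01 in the cultured cells. Both chronic lymphocytic leukemias carried T-cell markers (11.14 and 11.25) with B-cell markers at 5.90 and 6.06, against 8.73 to 9.38 for B-cell markers in the diffuse large B cell lymphomas. In the T-zone lymphomas the B-cell markers were at 6.78 to 8.90, and the highest, Newman, lay inside the range of the diffuse large B cell lymphomas. The acute leukemia had T-cell markers at 8.87 and B-cell markers at 6.0. Of the 10 endothelial markers, 7 averaged under the array medians of 5.57 to 5.77 in the hemangiosarcoma lines, including PECAM1 (3.67), CDH5 (4.98) and VWF (4.96). CLDN5 (5.66) was inside that range, and KDR (6.32) and ERG (6.02) were above it. Fibroblast and mural markers averaged 10.47 to 12.72 over the cultured cells. In such bulk RNA, fewer cells of a type and less RNA per cell cannot be told apart.

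To describe the members together, each gene was expressed as its difference from its own mean over the 34 arrays, and these differences were averaged over the 33 genes of an array. On this scale every hemangiosarcoma line lay between -1.32 and -0.97, the hematoma cultures were at -0.68 (Pippin), -0.93 (Baxter) and -1.13 (Kylie), and the osteosarcoma lines lay between -0.95 and -0.60. Type means were -1.09 ± 0.12 (SD, n = 10), -0.91 ± 0.23 (n = 3) and -0.78 ± 0.16 (n = 5). The T-zone lymphomas averaged 1.69 ± 0.76 (SD, n = 6) and ran from 0.59 in Rose to 2.70 in Niki. The diffuse large B cell lymphomas averaged 0.94 ± 0.91 (n = 6), from 1.72 in both Snuggles and Chieftain down to -0.66 in Benson. The leukemias were at 0.26 (Rascal), 0.63 and 0.86, and the marginal zone lymphoma was at 0.07. All primary samples other than Benson lay above every culture, and Benson lay inside the range of the osteosarcoma lines. Among the type means, T-zone lymphoma was the highest for 19 of the 33 members (6.7% of all genes had their highest mean there) and hemangiosarcoma for none, while hemangiosarcoma was the lowest for 14 (8.1% of all genes) and hematoma for 10 (30.0% of all genes).

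**Figure D1:**
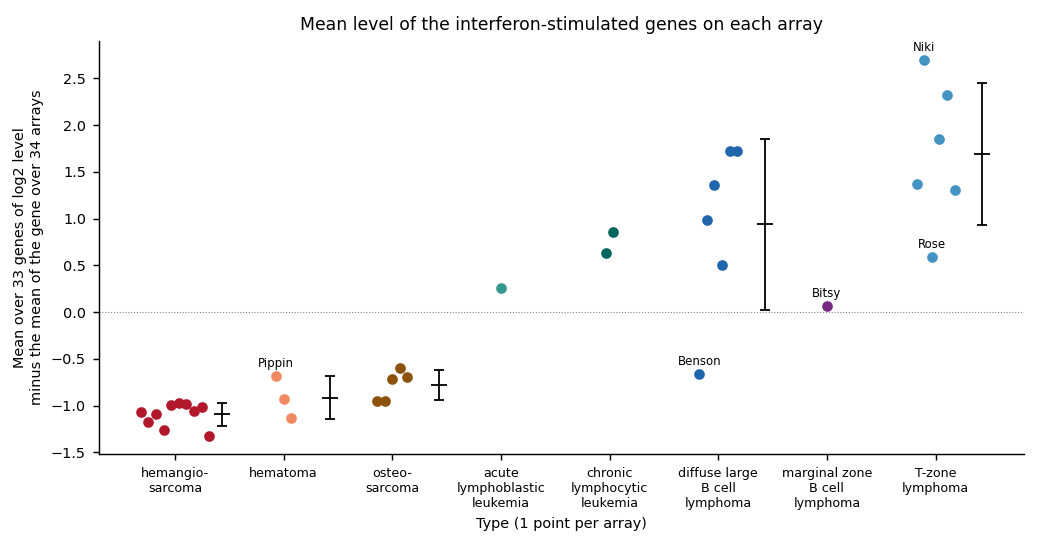
Mean level of the 33 interferon-stimulated genes on each of 34 arrays, as log2 difference from each gene's mean over all arrays, by tumor type; each point is 1 dog, and bars give mean ± SD for types with more than 2 arrays. Cultured cells lie between -1.32 and -0.60, and the primary tumors between -0.66 (Benson) and 2.70 (Niki).

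**Figure D2:**
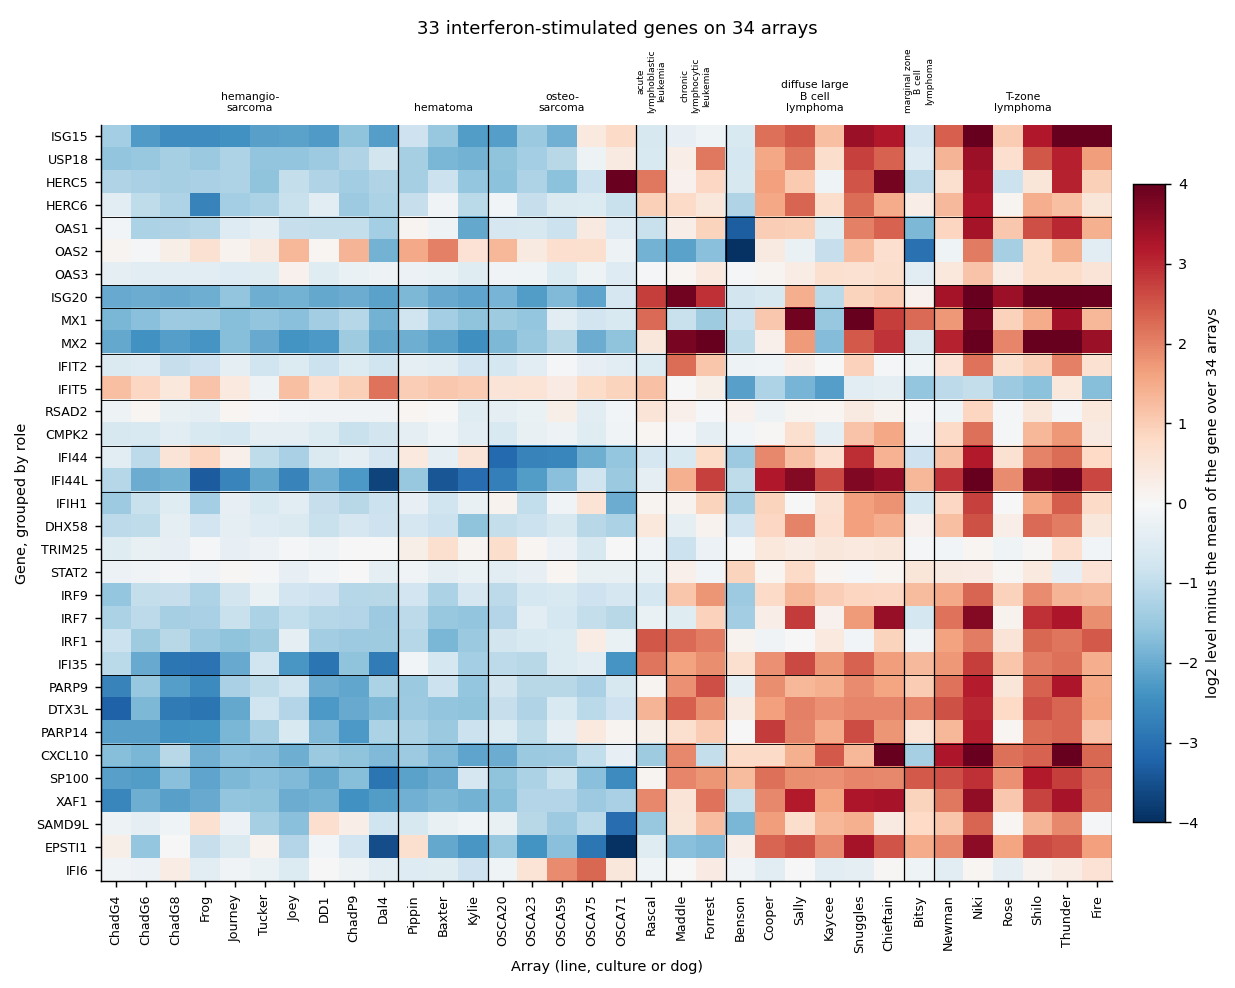
Heat map of the 33 members (rows, grouped by role) on the 34 arrays (columns, grouped by tumor type), colored by log2 level minus the gene's mean over 34 arrays, with the color scale limited to 4 in either direction. The cultured block is low for most rows, with IFIT5 and OAS2 among the rows in which it is not.

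Primary lymphoid tumors were set against cultured cells first, since this contrast was the widest. Culture and lymphoid lineage change together here and cannot be told apart. Of the 33 members, 25 were above the expression filter and were tested, and 20 were higher in the 16 primary samples while 1 was lower, at an adjusted p under 0.001 (limma with Benjamini-Hochberg adjustment over all probe sets). That is 80% and 4% of the members tested, and over all 9339 genes tested 21.5% were higher and 21.7% lower. The median difference of the members was 2.23, against 0.08 for all genes tested. Over all 33 members, tested or not, 30 had the higher mean in primary cells, as did 62.4% of all genes. T-cell markers moved the same way (6 of 6 tested were higher), as did 5 of 6 myeloid markers, whereas 8 of 8 fibroblast and mural markers were lower, and the part of these cell types in the result was not tested. The hybridization control signal was 10.58 ± 0.35 (SD) on primary and 9.81 ± 0.45 on cultured arrays. The 3′ minus 5′ actin signal, a sign of RNA quality, was 1.37 ± 1.83 and 1.21 ± 0.72, with the leukemias at 3.82 (Rascal), 3.02 (Maddle) and 4.63 (Forrest). The part of either in the result was not tested.

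ISG15, a ubiquitin-like protein that is attached to other proteins during the response, was 9.42 ± 1.98 in primary and 5.83 ± 0.94 in cultured cells (difference 3.59, SE 0.50, adjusted p 1.31e-07). Its levels ran from 6.74 to 12.40 around a median of 9.82 in primary cells and from 5.02 to 8.30 around 5.37 in cultures, and the groups met because the osteosarcoma lines OSCA75 (7.92) and OSCA71 (8.30) stood above all other cultures. ISG20, an exonuclease that degrades RNA, lay between 4.33 and 5.90 in the 18 cultures and between 5.49 and 10.85 (median 9.41) in primary cells, a difference of 4.02 (SE 0.45, adjusted p 1.13e-09). The primary samples low in ISG20 were all lymphomas of B cells, with Kaycee at 5.49, Benson at 5.81 and Cooper at 5.92. USP18, the protease that removes ISG15 and restrains the interferon receptor, was higher by 2.68 (SE 0.33), and HERC6, a putative ISG15 ligase, by 2.03 (SE 0.27).

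The adjoining genes IFI44 and IFI44L, both of them interferon-inducible with little known of their function, differed in how far apart the groups were. IFI44L was 9.51 ± 1.55 in primary and 4.72 ± 0.81 in cultured cells, a difference of 4.79 (SE 0.40, adjusted p 1.02e-12), and 15 of 16 primary samples exceeded the highest culture (OSCA75, 6.17), the exception being Benson at 5.95. IFI44 was 8.84 ± 1.34 against 7.05 ± 1.18 (difference 1.79, SE 0.41, adjusted p 0.000315), and 8 of 16 primary samples exceeded the highest culture. MX1, a dynamin-like GTPase that traps viral nucleocapsids, was higher by 2.87 (SE 0.44), with cultures between 4.99 and 6.44 and primary samples between 5.36 (Kaycee) and 11.01 (Snuggles). Both chronic lymphocytic leukemias were among the cultures for MX1, at 6.0 and 5.46.

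No overlap between the groups was seen for 5 of the 25 members tested, against 3.17% of all genes tested in this direction. They were SP100 (8.74 ± 0.71 against 4.86 ± 0.54, difference 3.88, SE 0.21, adjusted p 5.89e-18), a scaffold of nuclear bodies, XAF1 (9.42 ± 1.21 against 5.54 ± 0.40, difference 3.88, SE 0.29), a pro-apoptotic protein, and IFI35 (9.94 ± 0.55 against 6.51 ± 0.94, difference 3.43, SE 0.26). The other two, DTX3L (11.30 ± 0.67 against 7.74 ± 0.77, difference 3.56, SE 0.24) and PARP9 (9.22 ± 1.0 against 6.13 ± 0.62, difference 3.09, SE 0.27), are adjoining genes on chromosome 33 whose products form an ADP-ribosylating ubiquitin ligase. For SP100 the lowest primary sample was the acute leukemia at 6.8 and the highest culture was the hematoma of Kylie at 6.01. The filter asks for 16 arrays above the median, so a member can enter the test through the 16 primary samples alone, and this holds for all genes tested. SP100 was above the median on 18 arrays, XAF1 on 22, PARP9 on 29, IFI35 on 30 and DTX3L on 34. Of the members described before these, ISG20 was above it on 16 arrays, IFI44L on 18 and MX1 on 19, so they entered mainly through the primary samples. All 21 calls in this comparison stayed when the filter was left out. In the 8 members not tested the groups overlapped.

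The remaining members that were higher were EPSTI1 (2.88, SE 0.48), PARP14 (2.75, SE 0.31), IRF1 (2.23, SE 0.28), IRF9 (1.90, SE 0.22), IFIH1 (1.45, SE 0.29), SAMD9L (1.34, SE 0.33), OAS3 (0.72, SE 0.11) and STAT2 (0.41, SE 0.10). IRF1 is a transcription factor of both interferon types, IRF9 and STAT2 are the DNA-binding and activating subunits of the type I complex, and IFIH1 is the RNA sensor MDA5. With the tumor types weighted equally, IFI44 (1.12), IFIH1 (0.98), STAT2 (0.38) and SAMD9L (1.07) no longer passed, and 18 members were called. With the 3 leukemias alone as the primary group, an alternative chosen after seeing the data, 12 members were called. The 11 that no longer passed included ISG15 (1.31), MX1 (1.35), EPSTI1 (0.06) and IFIT5 (-0.36).

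IFIT5, which binds RNA with a 5′ triphosphate, was the member that was lower in primary cells. It was 6.73 ± 1.0 in primary and 8.48 ± 0.49 in cultured cells, a difference of -1.76 (SE 0.26, adjusted p 3.28e-07). Cultures ran from 7.46 to 9.82, with Dal4 the highest, whereas the diffuse large B cell lymphomas ran from 5.45 to 7.29 and the T-zone lymphomas from 5.94 to 6.70 apart from Thunder at 8.07. The leukemias were inside the range of the cultures, at 8.83, 7.64 and 7.90. OAS2, of the synthetases that make the activator of RNase L, was 9.30 ± 0.86 in cultures and ran from 4.83 (Benson) to 10.85 (Niki) in primary cells, a difference of -1.09 that did not pass (adjusted p 0.0255). Its neighbor OAS1 differed by 1.56 in the opposite direction and did not pass either (adjusted p 0.00165), and neither did IFI6 (-0.13) or TRIM25 (0.13).

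The other 8 members fell under the filter in this contrast because they were above the array median on fewer than 16 arrays. Their mean differences were all positive and are given without a test: 4.19 for MX2, 3.34 for the chemokine CXCL10, 2.41 for the master regulator IRF7, 2.11 for the ISG15 ligase HERC5, 1.77 for DHX58, 1.22 for IFIT2, 1.03 for CMPK2 and 0.32 for RSAD2 (viperin). MX2 was between 3.93 and 5.26 in cultures, 10.19 and 10.41 in the chronic lymphocytic leukemias, 6.84 in the acute leukemia and 5.79 in the marginal zone lymphoma. RSAD2 was above the array median on none of the 34 arrays, with levels from 4.2 to 5.53. Without the filter, 28 of the 33 members passed.

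**Figure D3:**
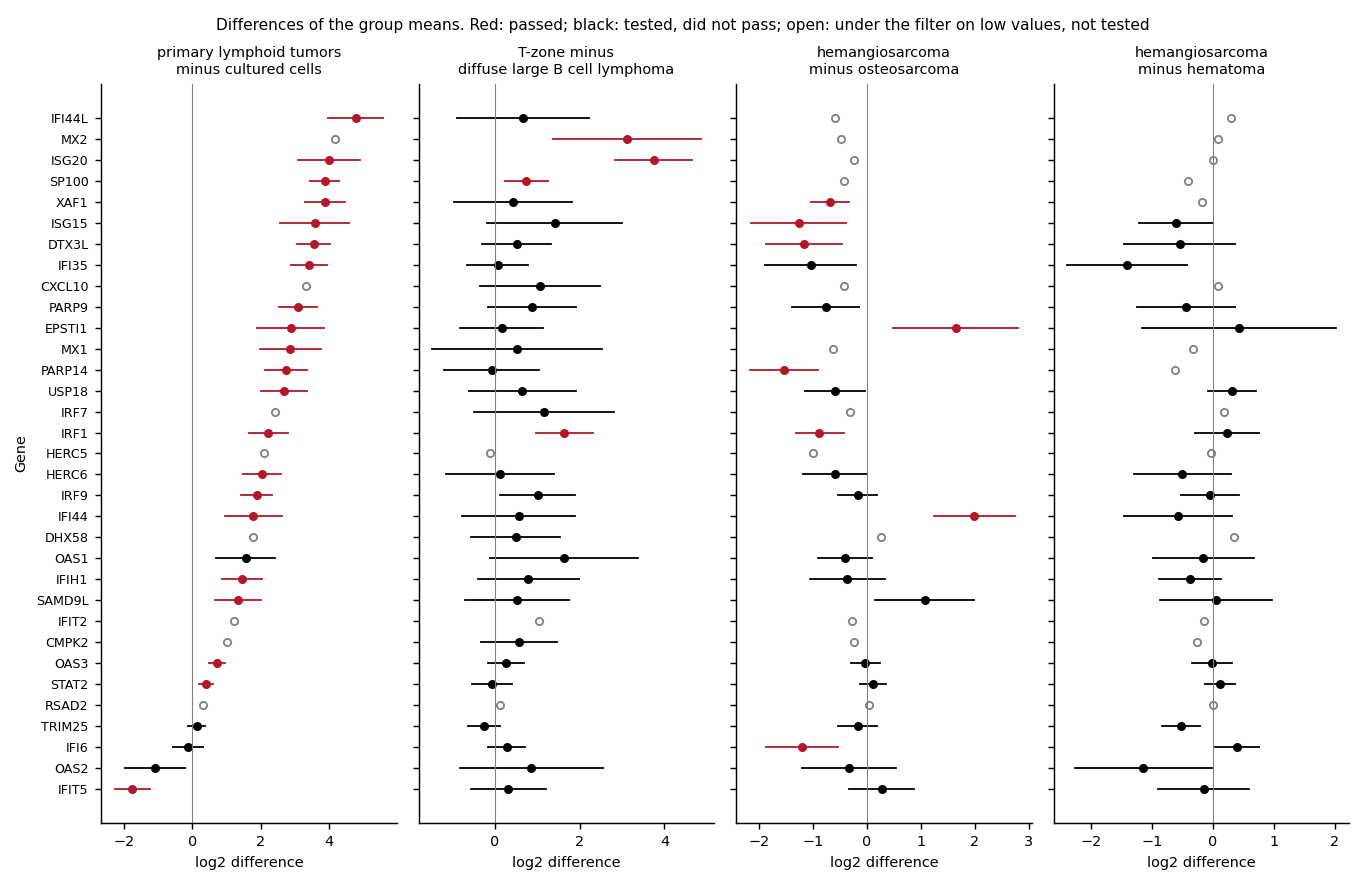
Log2 difference of each member with its 95% confidence interval in the 4 comparisons, with red points passing the adjusted threshold, black points tested without passing and open points not tested; the x axes differ between panels. Differences reach 4.79 (IFI44L) between primary and cultured cells and 3.75 (ISG20) between T-zone and diffuse large B cell lymphoma, and none passed between hemangiosarcoma and hematoma.

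T-zone lymphoma, a T-cell tumor, was then compared with diffuse large B cell lymphoma, 6 against 6, all primary cells from Golden Retrievers. Of 30 members tested, 4 were higher in T-zone lymphoma and none was lower at an adjusted p under 0.05, while 5 had an unadjusted p under 0.05. The 4 are 13.3% of the members tested, against 9.54% of all 9237 genes tested that were higher and 10.1% that were lower. The median difference was 0.57 for the members and -0.04 for all genes, and 29 of the 33 members had the higher mean in T-zone lymphoma, as did 46.3% of all genes. The share called was near that of all genes. Members rose and fell together across these dogs, as described below, so counts of members are not counts of separate observations. Beside these, 7 of 7 T-cell markers were higher and 2 of 4 B-cell markers lower, and 1 of 9 myeloid and 1 of 6 cytotoxic lymphocyte markers were higher. The part of these cell types in the members' differences was not tested. The 3′ minus 5′ actin signal was -1.05 to -0.79 in the T-zone lymphomas apart from Thunder (3.11) and Fire (2.51). In the diffuse large B cell lymphomas it was 0.18 to 3.21. Its part in the differences was not tested either.

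ISG20 had the largest difference of the members tested. It was 9.90, 10.85, 9.97, 10.68, 10.84 and 10.51 in the T-zone lymphomas of Newman, Niki, Rose, Shilo, Thunder and Fire, with a median of 10.59. In the diffuse large B cell lymphomas it ran from 5.49 to 8.01 around a median of 6.69. The groups did not overlap, as for 4.55% of all genes in this direction, and the difference was 3.75 (SE 0.42, 95% confidence interval 2.84 to 4.66, adjusted p 6.3e-05). High ISG20 was also found in the leukemias (9.34, 10.42 and 9.49) and not in the marginal zone B cell lymphoma (6.73), so that the primary samples with ISG20 under 9 were the 7 of B-cell label.

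MX2, a nuclear pore-associated relative of MX1, was 10.25 ± 1.34 in T-zone and 7.13 ± 1.90 in diffuse large B cell lymphoma, a difference of 3.12 (SE 0.81, 95% confidence interval 1.38 to 4.86, adjusted p 0.016). It ran from 8.34 (Rose) to 11.85 (Niki) in the first and from 4.64 (Kaycee) to 9.28 (Chieftain) in the second. MX1, its neighbor on chromosome 31, averaged 8.98 ± 1.19 and 8.46 ± 2.41 and did not pass. IRF1 was 10.27 ± 0.72 against 8.63 ± 0.39 (difference 1.64, SE 0.31, adjusted p 0.00261), and Rose (8.93) alone of the T-zone lymphomas was below the highest diffuse large B cell lymphoma (Chieftain, 9.32). ISG20, MX2 and IRF1 stayed under the threshold in each of 12 fits that left out a sample, with differences of 3.51 to 4.01, 2.62 to 3.55 and 1.52 to 1.91.

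SP100 was 9.27 ± 0.48 against 8.53 ± 0.32, a difference of 0.74 (SE 0.24, adjusted p 0.0444). The call was lost in 9 of the 12 such fits, those without Benson (0.62), Sally (0.75), Kaycee (0.74), Snuggles (0.76), Chieftain (0.76), Newman (0.75), Niki (0.67), Shilo (0.63) or Thunder (0.71). The largest differences that did not pass were 1.63 for OAS1 (adjusted p 0.19), 1.41 for ISG15 (0.219), 1.16 for IRF7 (0.347) and 1.07 for CXCL10 (0.306). ISG15 ran from 8.54 (Rose) to 12.40 (Niki) in T-zone lymphoma and from 6.90 (Benson) to 10.96 (Snuggles) in diffuse large B cell lymphoma, so the groups overlapped over much of their length. HERC5, RSAD2 and IFIT2 were under the filter.

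The members varied between dogs of a lymphoma more than most genes did. The median SD of the members was 1.03 over the 6 diffuse large B cell lymphomas and 0.890 over the 6 T-zone lymphomas, against 0.368 and 0.338 over all genes, and 23 of 33 members in each tumor lay above the 90th percentile of all genes (0.745 and 0.735). In the hemangiosarcoma lines the median SD was 0.345 against 0.262, with 8 members above the 90th percentile of 0.653. These medians include members near background, and over the members whose mean exceeded the array median they were 0.623 in hemangiosarcoma (17 members), 1.09 in diffuse large B cell lymphoma (31) and 0.962 in T-zone lymphoma (31), against 0.336, 0.426 and 0.398 for all such genes. In hematoma and osteosarcoma cultures the median SD over all 33 members was 0.308 against 0.243 and 0.490 against 0.315. Over the members whose mean exceeded the array median it was 0.344 against 0.312 and 0.494 against 0.402 for all such genes. The largest within-type SDs were 2.41 for MX1, 2.07 for OAS1, 1.90 for MX2 and 1.86 for OAS2, all in diffuse large B cell lymphoma, and 2.40 for HERC5 in osteosarcoma.

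Much of the spread in the lymphomas followed the dog. Benson's diffuse large B cell lymphoma was the lowest of 6 for 23 of 33 members (18.8% of all genes were lowest there). In the T-zone lymphomas Niki was the highest for 25 members (9.8% of genes) and Rose the lowest for 25 (22.4% of genes). MX1 was 6.03, 7.96, 10.74, 5.36, 11.01 and 9.65 in Benson, Cooper, Sally, Kaycee, Snuggles and Chieftain, and OAS1 was 5.70, 9.96, 9.94, 8.49, 11.00 and 11.33 in the same order. Kaycee was therefore lowest for MX1, and Benson for OAS1. Benson's array had the highest hybridization control signal of the 34 (11.32, against 10.04 to 11.14 on the other primary arrays), and the part of this in its low levels was not tested.

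**Figure D4:**
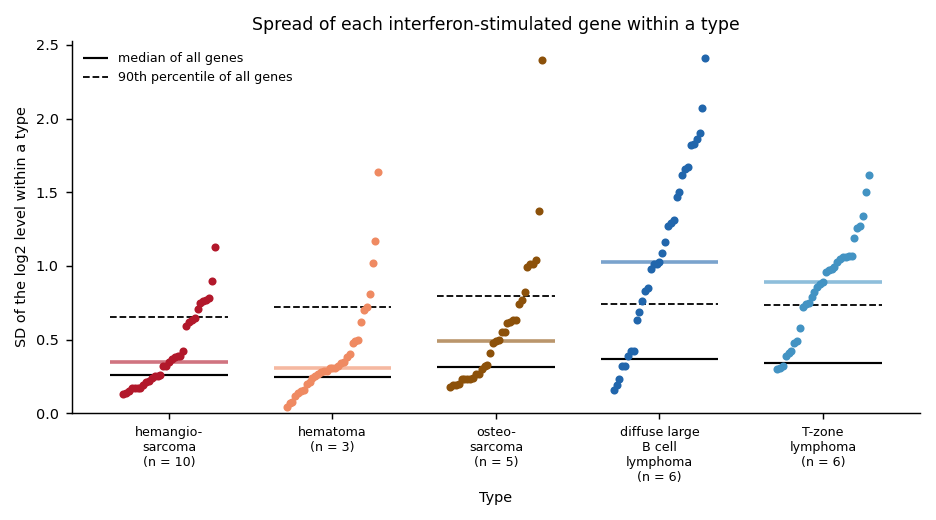
Standard deviation of each member over the arrays of a tumor type (log2 units), for the 5 types with at least 3 arrays; points are members, the colored line their median, the black line the median of all genes and the dashed line the 90th percentile of all genes. The member median is 1.03 in diffuse large B cell and 0.890 in T-zone lymphoma, against 0.345 in hemangiosarcoma, and 1.09, 0.962 and 0.623 over the members above the array median.

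Across dogs the members varied together in the lymphomas. The median Pearson correlation over the 528 pairs of members was 0.799 over 6 T-zone lymphomas and 0.662 over 6 diffuse large B cell lymphomas, against 0.058 over 10 hemangiosarcoma lines, with Spearman medians of 0.771, 0.486 and 0.036. Over members above the array median on no fewer arrays of a type than they were below it, a choice made after seeing the data, the Pearson medians were 0.812 (30 members), 0.703 (31) and 0.024 (16), and pairs of all genes held to the same rule gave 0.030, 0.022 and 0.005. Without the 2 samples farthest from the median level, the Pearson medians over all 33 members were 0.646, 0.312 and -0.021. These are descriptions over few arrays, which share a chip, its normalization and whatever else differs between dogs. In T-zone lymphoma OAS2 followed the mean of the other members at r = 1.0, and CMPK2, IFI44L, IFIH1 and XAF1 at 0.99, and in diffuse large B cell lymphoma ISG15, OAS1 and USP18 did so at 0.99. STAT2 did not (-0.16 and -0.62), though its other probe sets correlated with the one used at only -0.17 to 0.70, and IFI6 was low in both (0.40 and 0.13). IRF1 followed at 0.13 in diffuse large B cell lymphoma. Measured members whose genes adjoin, counting protein-coding genes of the RefSeq annotation of the dog assembly UU_Cfam_GSD_1.0, were CMPK2 and RSAD2 (chromosome 17), OAS1, OAS3 and OAS2 (26), MX2 and MX1 (31), HERC5 and HERC6 (32), PARP9 and DTX3L (33), and IFI44 and IFI44L (6).

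**Figure D5:**
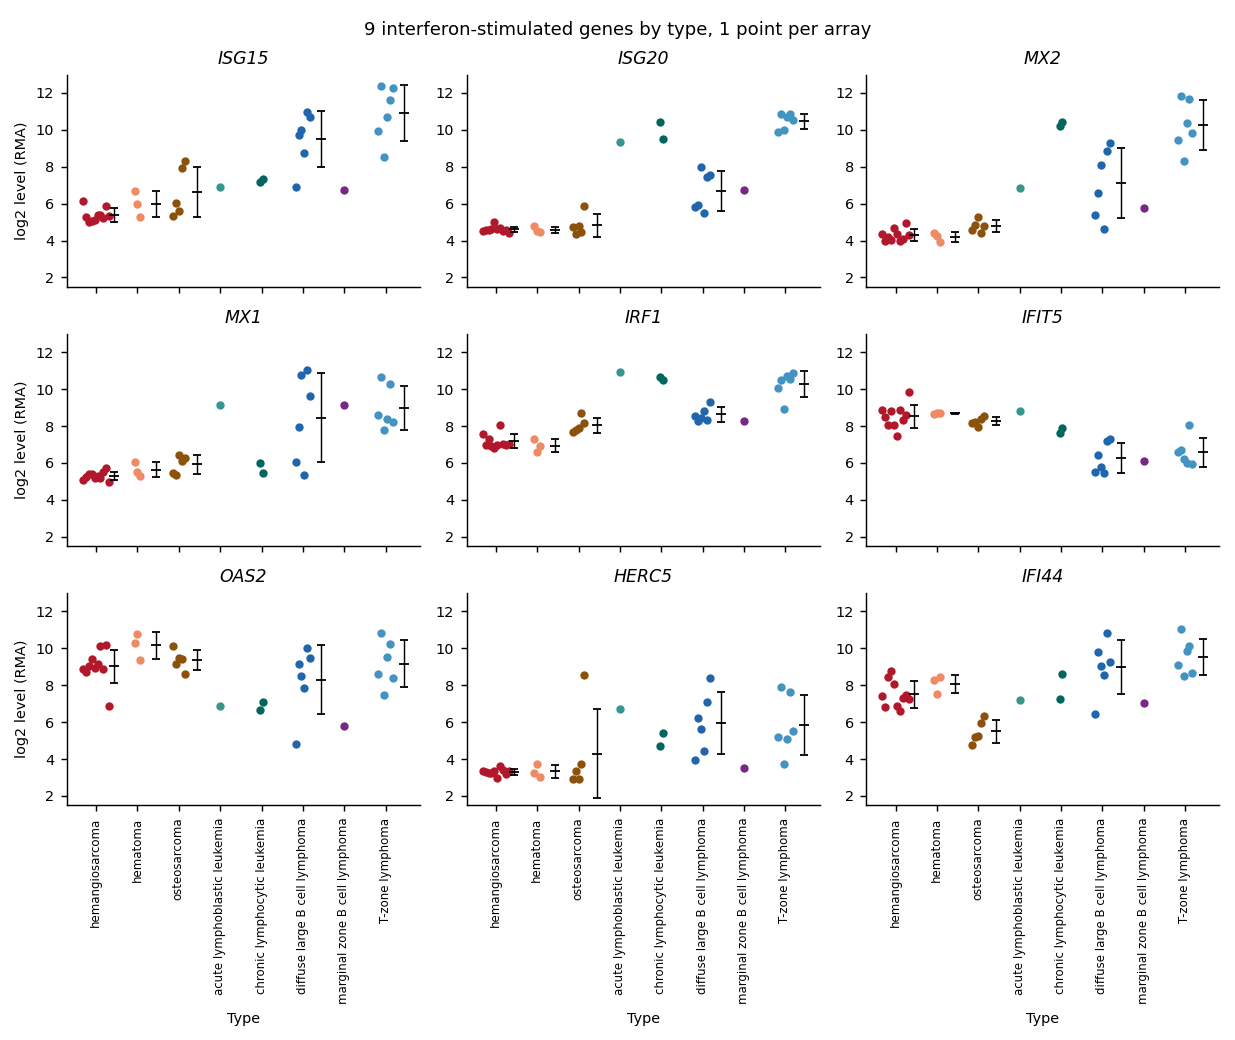
Log2 level of 9 members (ISG15, ISG20, MX2, MX1, IRF1, IFIT5, OAS2, HERC5 and IFI44) on every array by tumor type, with bars at mean ± SD for types with more than 2 arrays. ISG20 separates the T-zone lymphomas (9.90 to 10.85) from the diffuse large B cell lymphomas (5.49 to 8.01), and HERC5 shows OSCA71 (8.54) apart from the other cultures.

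Among cultured tumors, the 10 hemangiosarcoma lines were compared with the 5 osteosarcoma lines. Of 21 members tested, 2 had higher levels (9.52%) and 6 had lower levels (28.6%) in the hemangiosarcoma lines, with the adjusted p set at 0.05, against 14.1% and 11.9% of all 9613 genes tested. The median difference was -0.40 for the members and 0.01 for all genes, and 26 of the 33 means were lower in hemangiosarcoma, as were 52.6% over all genes. The hybridization control signal was 9.25 to 9.78 on the hemangiosarcoma and 10.00 to 10.82 on the osteosarcoma arrays. The 3′ minus 5′ actin signal, a sign of RNA quality, was 0.62 to 1.90 in hemangiosarcoma, 1.38 and 1.10 in OSCA20 and OSCA23, and 2.41, 2.56 and 2.32 in OSCA59, OSCA75 and OSCA71. The part of either in these differences was not tested.

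IFI44 was higher in hemangiosarcoma and did not overlap, as for 3.09% of all genes in this direction. It was 4.78, 5.22, 5.27, 5.95 and 6.34 in OSCA20, OSCA23, OSCA59, OSCA75 and OSCA71 and ran from 6.59 to 8.76 (median 7.37) in hemangiosarcoma, a difference of 1.99 (SE 0.35, 95% confidence interval 1.25 to 2.74, adjusted p 0.000933). The hematoma cultures were as high, at 8.29, 7.52 and 8.42. IFI44L, next to it on chromosome 6, lay at 3.26 to 5.82 in hemangiosarcoma and 4.23 to 6.17 in osteosarcoma. EPSTI1, named for its induction by stroma in epithelial cells, was 7.33 ± 1.13 in hemangiosarcoma and 5.68 ± 0.99 in osteosarcoma (difference 1.65, SE 0.55, adjusted p 0.0341). Dal4 (4.60) was the exception among the hemangiosarcoma lines, and the call was lost in 6 of 15 fits, without ChadG4 (1.54), ChadG8 (1.56), DD1 (1.57), OSCA23 (1.68), OSCA75 (1.55) or OSCA71 (1.29).

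The 6 members lower in hemangiosarcoma were PARP14 (4.69 ± 0.59 against 6.22 ± 0.55, difference -1.53, SE 0.30, adjusted p 0.00191), a mono-ADP-ribosyltransferase, DTX3L (-1.17, SE 0.33), IRF1 (7.17 ± 0.38 against 8.04 ± 0.41, difference -0.88, SE 0.21), XAF1 (-0.68, SE 0.17), IFI6 (6.53 ± 0.24 against 7.74 ± 1.04, difference -1.2, SE 0.32), a mitochondrial and endoplasmic reticulum protein, and ISG15 (5.38 ± 0.37 against 6.64 ± 1.37, difference -1.26, SE 0.42, adjusted p 0.0339). Their groups overlapped in every case. The filter counts arrays of both groups, so a member can enter the test mainly through the group where it is higher. PARP14 lay at 4.09 to 5.91 in hemangiosarcoma and 5.48 to 6.89 in osteosarcoma, and XAF1 at 4.77 to 5.78 and 5.65 to 6.2. The array medians were 5.57 to 5.77. All 8 calls in this comparison stayed when the filter was left out. For ISG15 the osteosarcoma values were 5.33, 6.04, 5.61, 7.92 and 8.30 and the hemangiosarcoma values 5.02 to 6.17 with a median of 5.29, so that OSCA75 and OSCA71 alone lay above all 10 hemangiosarcoma lines. Of the 15 fits that left out a line, ISG15 reached the filter in 13. It no longer passed in 5 of these, without OSCA75 (-0.94), OSCA71 (-0.85), ChadG8 (-1.22), Frog (-1.22) or Journey (-1.23). Nor did it pass in a limma fit over all 34 arrays (adjusted p 0.109). In that fit XAF1 did not pass either (adjusted p 0.279). With the 6 Golden Retriever hemangiosarcoma lines alone, 6 of the 8 members called were tested, and IFI6 (-1.15) and XAF1 (-0.62) did not pass. IFI6 was led by OSCA75 (9.04) and OSCA59 (8.62), with the other osteosarcoma lines at 6.57, 7.29 and 7.18. The largest differences that missed the threshold were 1.07 for SAMD9L (adjusted p 0.0731), -1.04 for IFI35 (0.0604), -0.76 for PARP9 (0.0626) and -0.59 for HERC6.

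High levels in osteosarcoma belonged to different lines for different members. OSCA71 had HERC5 at 8.54, where the other 17 cultures lay between 2.92 and 3.71, and it was the highest culture for ISG15 (8.30), USP18 (7.40), CXCL10 (5.31) and ISG20 (5.90). The same line was the lowest of all 34 arrays for EPSTI1 (4.21), SAMD9L (7.08) and IFIH1 (5.51). OSCA75 was the highest culture for OAS1 (9.34), IFIH1 (8.03), IFI44L (6.17) and IRF1 (8.71). Among the 18 cultures OSCA71 was the highest for 7 of the 33 members (10.0% of all genes) and the lowest for 3 (12.5% of all genes). OSCA75 and OSCA59 were each the highest for 6 (8.5% and 12.7% of all genes).

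Between hemangiosarcoma lines and hematoma cultures, 10 against 3, none of 19 members tested passed an adjusted p under 0.1 in limma, under this fit or any alternative run, and 5 had an unadjusted p under 0.05. Of all 9761 genes tested, 0.143% were higher and 0.113% lower. The median difference was -0.16 for the members and 0.04 for all genes, and 20 of the 33 means were lower in hemangiosarcoma, as were 37.0% over all genes. The 5 were TRIM25, a ubiquitin ligase that activates the RNA sensor RIG-I (5.83 ± 0.17 against 6.35 ± 0.27, difference -0.53, 95% confidence interval -0.84 to -0.21, adjusted p 0.284), IFI35 (-1.41, adjusted p 0.367), OAS2 (-1.14, 0.514), ISG15 (-0.61, 0.515) and IFI6 (0.40, 0.475). TRIM25 was 6.26, 6.66 and 6.13 in Pippin, Baxter and Kylie and 5.53 to 6.04 (median 5.84) in the lines, without overlap, as for 0.502% of all genes in this direction. IFI35 was 8.0, 7.43 and 6.75 in the cultures and 5.17 to 7.34 in the lines. The 95% confidence interval for IFI35 ran from -2.39 to -0.42.

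The rest of the pathway was read from lists of its ligands, receptors, sensors, restraints and other induced genes. Their counts are to be read against the shares of all genes given above, and several lie near them. Of 22 interferon genes listed 5 were read, and none reached the filter in any comparison. IFNG, the type II interferon, was 3.61 to 4.2 in the tumor lines, 4.31 and 5.88 in the chronic lymphocytic leukemias, 4.13 to 5.69 in diffuse large B cell lymphoma and 4.02 to 8.49 in T-zone lymphoma. Of 8 receptor and kinase genes read, 5 of 7 tested were higher in primary than in cultured cells, where 21.5% of all genes were. They included IFNGR1 (1.29), IFNAR1 (1.2), JAK2 (0.92) and JAK1 (0.82). IFNGR1, a chain of the receptor for type II interferon, was also the 1 of 7 higher in T-zone than in diffuse large B cell lymphoma (1.35, adjusted p 0.0244), and none of 7 passed in limma in either comparison among cultures, with 2 (osteosarcoma) and 1 (hematoma) at an unadjusted p under 0.05.

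Of 20 sensors and adaptors listed 10 were read. Of 9 tested, 7 were higher in primary cells, where 21.5% of all genes were. Among them were STING1 (3.30), which relays the sensing of cytosolic DNA, MYD88 (1.54) and TLR9 (1.34). Against diffuse large B cell lymphoma, 2 of 10 were lower in T-zone lymphoma and none higher, where 10.1% and 9.54% of all genes were. They were STING1 (-1.28, adjusted p 0.0296) and TLR9 (-0.90, adjusted p 0.0198), the endosomal DNA receptor of B cells and plasmacytoid dendritic cells. Between hemangiosarcoma and osteosarcoma the adaptor TRAF3 was higher (0.61, adjusted p 0.0102). Of the negative regulators tested, 2 of 8 were higher in primary cells, PTPN6 (6.11) and PIAS1 (1.51), and PTPN11 was lower (-2.21), where 21.5% and 21.7% of all genes were. PTPN6 encodes SHP-1, a phosphatase of blood cells. Between hemangiosarcoma and osteosarcoma 2 of 8 were higher, PTPN11 (1.25) and PTPN1 (0.91), and PIAS1 was lower (-0.60), against 14.1% and 11.9% of all genes. None of 8 passed between the lymphomas in limma, and 1 had an unadjusted p under 0.05.

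Other interferon-induced genes outside the 39 included the guanylate-binding proteins. Of 20 tested between the lymphomas, 4 were higher in T-zone lymphoma and 1 lower in limma, where 9.54% and 10.1% of all genes were. Those higher were GBP5 (3.24, adjusted p 0.000253), GBP6 (1.56, adjusted p 0.0372), GBP1 (1.26, adjusted p 0.00559) and IDO1 (3.06, adjusted p 0.00828), which degrades tryptophan. Among those that did not pass were IRF8 (0.50) and CIITA (-0.21). PNPT1 was lower (-1.14, adjusted p 0.00691). Between primary and cultured cells 8 of 16 were higher, led by GBP1 (4.87), SP140 (3.57), RTP4 (2.86) and PLSCR1 (2.83), and LAP3 (-0.99) and NMI (-0.72) were lower. Of all genes, 21.5% were higher and 21.7% lower. In hemangiosarcoma 4 of 14 were lower than in osteosarcoma, TDRD7 (-1.51), LAP3 (-0.83), SP140 (-0.65) and PML (-0.47), where 11.9% of all genes were. Against hematoma none of 15 passed in limma, with 2 at an unadjusted p under 0.05.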

How the data were processed

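The authors deposited log2 expression values from RMA (affy, version not given in the sources used here) for 43035 probe sets on 34 arrays. Per the labels, biotin-labelled RNA was hybridized 1 sample to an array, and groups are the labelled tumor types. The number of arrays, not a read depth, limits precision, and with 1 array for each dog or line p-values measure the spread between these samples. The methods mention 1 sample run on a pair of chips, which could not be told from the labels. After 175 control probe sets were left out, 29254 of 42860 carried exactly 1 gene symbol in the platform annotation, 439 several and 13167 none, and 65 probe sets read the 33 members (17 members by 1, 16 by several). Probe sets that can match several transcripts were used for ISG15, MX1, MX2, OAS2, OAS3, IFI6, IFIH1, DHX58, PARP9, TRIM25 and SP100. Comparisons were fitted with limma 3.58.1 in R 4.3.3 (lmFit and eBayes) over all probe sets that exceeded the array median on a number of compared arrays no smaller than the smaller group. P-values were adjusted by Benjamini-Hochberg over all of them, with thresholds of 0.05 within lymphomas and sarcomas, 0.1 against hematoma and 0.001 between primary and cultured cells. The fits were also run on simulated data, with noise drawn independently for each probe set. Members varied together in the lymphomas, so that run does not bear on counts of members. Summaries used Python 3.11.15, pandas 2.3.3 and numpy 2.4.6. Named were members called (up to 10 for each comparison by size), the 10 with the widest range of type means, the 5 largest SDs, the 4 largest differences not passing and up to 4 called genes of each other list. Members, lists and thresholds were chosen with earlier results of these data known. Alternatives changed the filter, centering, variance prior, samples in the fit and probe set chosen.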

Additional observations from a re-analysis of the deposited data

Results flagged for a closer look

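Within each tumor type of 4 to 10 arrays, 136 sets of values (33 members in each of 4 types, and the mean member level in each) were searched for a sample that stands apart from its nearest neighbor by more than Dixon's critical share of the range, which chance gives in about 1 of 20 sets. In all, 18 were found, and their causes were not tested.

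Benson's diffuse large B cell lymphoma accounts for 6 of them, each the lowest of 6 samples. IFI44L was 5.95, with the next sample at 9.63, IRF9 was 7.38 (next 9.60), SAMD9L was 8.29 (next 10.48), PARP9 was 7.19 (next 8.91), DTX3L was 9.79 (next 11.05) and TRIM25 was 6.05 (next 6.31). Among T-zone lymphomas, Thunder was the highest for IFIT5 (8.07, next 6.70) and TRIM25 (6.70, next 6.11). Thunder and Fire had more 3′ than 5′ actin signal (3.11 and 2.51) where the other 4 T-zone arrays lay between -1.05 and -0.79.

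In osteosarcoma, HERC5 was 8.54 in OSCA71 with the next line at 3.71, OAS1 was 9.34 in OSCA75 (next 8.47) and STAT2 was 8.73 in OSCA59 (next 8.35). In hemangiosarcoma, Dal4 stood low for OAS2 (6.90, next 8.74), EPSTI1 (4.60, next 6.62) and SP100 (3.75, next 4.44) and high for USP18 (6.31, next 5.84). The others were ISG20 in Journey (4.98, next 4.67), OAS3 in Joey (6.14, next 5.76) and HERC6 in Frog (4.99, low, next 6.19).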

How the results depend on the processing

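No called difference changed sign under any alternative run. Between T-zone and diffuse large B cell lymphoma 4 members passed, and 2 passed without probe sets that may match several transcripts, where SP100 (0.63) was lost and MX2 had no other probe set. Leaving out each sample gave 3 to 4. SP100 was also lost with no filter (adjusted p 0.0589) and with arrays centered on their medians (0.0579). Between hemangiosarcoma and osteosarcoma 8 passed, 4 with Golden Retriever hemangiosarcoma lines alone, where 18 members were tested, and 6 to 11 when each line was left out. Against hematoma 0 passed throughout (0 to 0). Between primary and cultured cells 21 passed, 12 with the leukemias alone, an alternative chosen after seeing the data, as were the fits with only both larger lymphoma types (23) and without Benson (22). The other alternatives gave 16 to 28, STAT2 being lost in 4 (without the hematomas, with Golden Retriever arrays alone, with equal weights and with the probe set of highest SD). The mean member level moved by less than 1 SD in each type with more than 1 array. The acute leukemia and the marginal zone lymphoma, with 1 array each, have no SD and were not assessed. No paired analysis was possible because replicate numbers were given in accession order and pair no samples. The causes of these changes were not tested.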
